A study of Mus musculus with 71 samples.

Results

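Promoter hubs are described here, the promoter anchors at which many H3K27ac HiChIP loops ended in mouse synovial sarcoma (SyS) tumors. An anchor is the stretch of chromatin at either end of a loop, and a hub was any anchor that lay within 2 kb of the transcription start site (TSS) of a GENCODE transcript and was an end of at least 10 distinct loops. The rule gave 577 hubs of 16864 distinct anchors, of which 12979 were promoter anchors, so that 4.45% of promoter anchors were hubs. Because the hubs were chosen on their loop counts, these counts are given as a description, and no test was made on them. The loops came from 2 mouse SyS tumors labelled as expressing SS18::SSX2. The study describes its hSS2 tumors as made by expression of the human fusion from a conditional allele in hindlimb tissue, started by TATCre protein injected at day 8 of life, but the labels of these 2 samples give neither the Cre source nor the age. An antibody against H3K27ac was used, and the authors merged the loops of both tumors into 1 list with no value per tumor. No control HiChIP, from another tissue or from tumors without the fusion, was analysed here, and the chromatin came from whole tumors, so the share of each cell type in a loop is not known.

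HiChIP couples proximity ligation of crosslinked chromatin with immunoprecipitation, and with an antibody against acetylated lysine 27 of histone H3 it favors contacts of active promoters with one another and with enhancers. Each contact is read as a paired-end tag that joins its ends, and a loop is a pair of anchors joined by more tags than a background model of distance and depth predicts. Promoters joined to many partners are often called hubs, and in other tissues they are known both from gene-dense stretches of housekeeping genes and from developmental genes with many enhancers.

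Promoter windows from 250 bases before to 50 bases after the TSS are shown first, since every hub lies at such a start. RefSeq windows (build GRCm38.p6) were matched by position, each to 1 hub, and 468 of the 577 hubs were matched. A window near 2 hubs was counted for 1 of them, so more hubs can have a window. The windows of Sf3a2, Akt1s1, Mknk2 and Zbtb7a are from the hubs with the most loops that had a window, that of Prmt1 is from the hub with the most tags among the rest with one, and that of Irx3 is from the hub with the largest share of partners away from promoters. Each is written 5′ to 3′ on the strand of its gene, and capitals mark 5 motifs searched on both strands, namely the GC box GGGCGG, the ETS motif CCGGAAG, the CCAAT box CCAAT, the TATA box TATAAA and the YY1 motif AAGATGGCG.
Sf3a2 (chr10:80798485-80798784, + strand): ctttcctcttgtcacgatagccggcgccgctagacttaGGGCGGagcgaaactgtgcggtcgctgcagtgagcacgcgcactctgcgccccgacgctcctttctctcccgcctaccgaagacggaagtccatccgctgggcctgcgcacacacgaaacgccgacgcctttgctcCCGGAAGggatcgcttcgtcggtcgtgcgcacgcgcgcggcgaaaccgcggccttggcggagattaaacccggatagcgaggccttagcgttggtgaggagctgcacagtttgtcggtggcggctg
Akt1s1 (chr7:44850122-44850421, + strand): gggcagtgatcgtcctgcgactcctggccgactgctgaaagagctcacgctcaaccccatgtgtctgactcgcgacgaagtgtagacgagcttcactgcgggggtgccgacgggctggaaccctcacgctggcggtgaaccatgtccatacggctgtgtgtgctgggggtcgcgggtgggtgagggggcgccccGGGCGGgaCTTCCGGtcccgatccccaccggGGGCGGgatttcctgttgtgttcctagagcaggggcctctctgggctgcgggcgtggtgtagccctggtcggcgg
Mknk2 (chr10:80676244-80676543, - strand): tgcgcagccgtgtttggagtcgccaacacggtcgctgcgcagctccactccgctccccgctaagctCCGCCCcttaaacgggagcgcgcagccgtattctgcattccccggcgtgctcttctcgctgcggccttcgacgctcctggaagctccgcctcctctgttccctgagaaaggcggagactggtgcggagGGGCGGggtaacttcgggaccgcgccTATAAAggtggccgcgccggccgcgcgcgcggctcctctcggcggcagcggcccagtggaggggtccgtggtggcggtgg
Zbtb7a (chr10:81136021-81136320, + strand): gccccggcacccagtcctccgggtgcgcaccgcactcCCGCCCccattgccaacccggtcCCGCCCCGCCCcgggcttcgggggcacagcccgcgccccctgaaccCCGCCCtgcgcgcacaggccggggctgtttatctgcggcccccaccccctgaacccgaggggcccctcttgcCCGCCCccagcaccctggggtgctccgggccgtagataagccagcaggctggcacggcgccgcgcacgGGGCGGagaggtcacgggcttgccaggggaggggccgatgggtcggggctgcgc
Prmt1 (chr7:44986371-44986670, - strand): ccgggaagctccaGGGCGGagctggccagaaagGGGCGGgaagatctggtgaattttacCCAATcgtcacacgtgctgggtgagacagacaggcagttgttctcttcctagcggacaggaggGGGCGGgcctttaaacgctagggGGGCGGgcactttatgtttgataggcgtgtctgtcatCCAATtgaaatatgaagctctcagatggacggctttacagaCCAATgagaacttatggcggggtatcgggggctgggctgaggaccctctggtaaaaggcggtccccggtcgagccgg
Irx3 (chr8:91801605-91801904, - strand): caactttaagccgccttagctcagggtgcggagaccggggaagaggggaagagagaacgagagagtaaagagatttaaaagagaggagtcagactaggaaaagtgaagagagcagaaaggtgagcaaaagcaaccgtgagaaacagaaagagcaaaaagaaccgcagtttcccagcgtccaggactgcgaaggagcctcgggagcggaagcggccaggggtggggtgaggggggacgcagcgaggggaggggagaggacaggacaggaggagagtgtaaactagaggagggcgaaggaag
The Sf3a2 window held 41 CpG dinucleotides, 1 GC box and 1 ETS motif, and the Akt1s1 window held 27 CpG dinucleotides, 2 GC boxes and 1 ETS motif. Zbtb7a had 6 GC boxes in a window of 77.7% G+C, Prmt1 had 4 GC boxes and 3 CCAAT boxes, and Mknk2 had 2 GC boxes and 1 TATA box. None of the 5 motifs was found in the Irx3 window, which held 14 CpG dinucleotides, and a match or its absence concerns these letters alone.

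Over all 801 RefSeq windows at hubs the GC box was found in 65.8% (95% Wilson interval 62.4 to 69.0), beside 65.9% of 9992 windows at promoter anchors with 1 to 9 loops and 35.7% of all 32851 windows. The ETS motif was found in 19.5% of windows at hubs, 18.4% at the other promoter anchors and 8.86% of all windows. CCAAT boxes were found in 38.5% of windows at hubs (35.1 to 41.9), 38.1% at other promoter anchors (37.2 to 39.1) and 37.4% of all windows. TATA boxes were found in 8.61% of windows at hubs (6.86 to 10.8), 6.16% at other promoter anchors (5.70 to 6.64) and 13.6% of all windows. YY1 is a zinc finger protein that binds active promoters, and its motif was found in 50 windows at hubs (6.24%, 4.77 to 8.14), in 3.02% of windows at other promoter anchors (2.70 to 3.38) and in 1.40% of all windows. Several windows can belong to 1 gene, so the intervals, which cover counting error only, are too narrow.

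Most promoter anchors had few loops, with 4580 at 1 loop and a single anchor at 33, and the counts showed no gap at the threshold. There were 200 promoter anchors with 9 loops and 135 with 10, the latter being 23.4% of the hubs. The median hub had 12 loops (quartiles 11 and 15), and 43 hubs had at least 20. Of the 3885 anchors without a TSS within 2 kb, 36 (0.927%) had 10 loops or more, with at most 16.

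**Figure D1:**
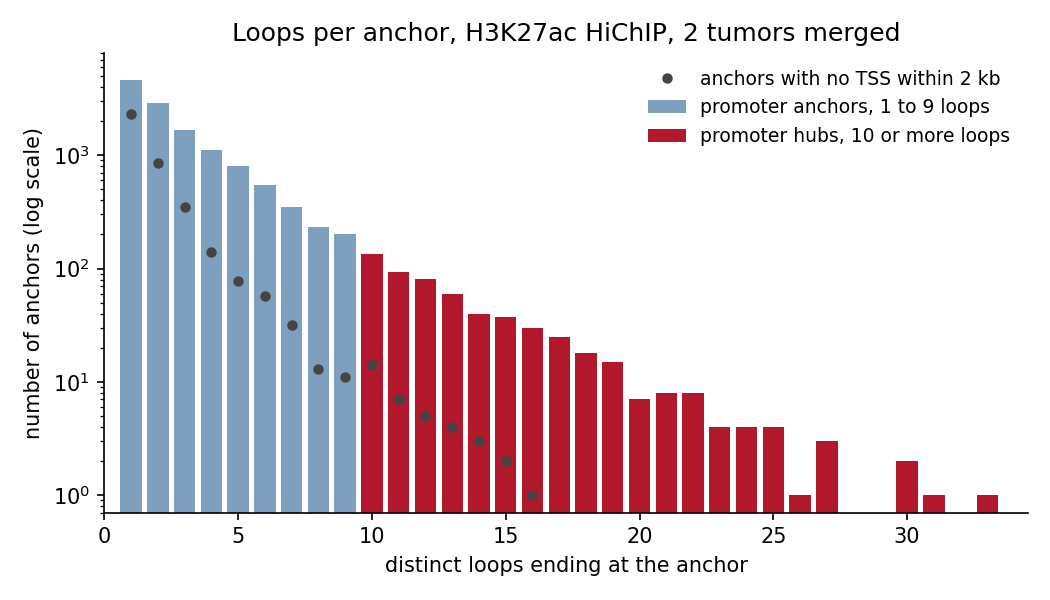
Number of anchors (y axis, log scale) against the distinct loops that ended at each (x axis) in the merged H3K27ac HiChIP list of 2 tumors. Blue bars are promoter anchors with 1 to 9 loops, red bars the 577 hubs and dots anchors with no TSS within 2 kb, and the counts fall from 4580 promoter anchors at 1 loop to 200 at 9 and 135 at 10.

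Just inside the threshold, the anchors of 10 loops with the most tags were those of Mir196a-2 (104 tags), of Nr1d1 (66 tags), a nuclear receptor of the circadian clock, and of Hoxc5/Hoxc6 (51 tags). Just outside it, the anchors of 9 loops with the most tags were those of Ubald1 (71 tags), of Med22/Rpl7a (68 tags) and of Gadd45g (59 tags). The tags on either side of the threshold overlapped, so the hubs are the upper end of a continuous range and not a separate class.

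Together the hubs were an end of 6328 of the 24129 distinct loops (26.2%, 25.7 to 26.8) and of loops with 15110 of 41574 tags (36.3%). A hub is counted here by its exact ends, and 18 hubs overlapped another hub, so that the 577 hubs made up 559 separate loci. They touched the TSSs of 707 protein-coding genes, which were 3.23% of all 21911 protein-coding genes and 7.05% of the 10035 with a TSS at any anchor.

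The hub with the most loops was the anchor shared by Plekhj1 and Sf3a2 on chromosome 10, with 33 loops and 97 tags. Sf3a2 encodes a subunit of the splicing factor SF3a, and its neighbor Plekhj1 is transcribed from the same stretch. The anchor of Akt1s1, an inhibitor of the mTORC1 kinase complex, and Tbc1d17 on chromosome 7 had 31 loops and 154 tags. Hoxc11 on chromosome 15, a homeobox gene of posterior identity, had 30 loops and 264 tags. Hes1 on chromosome 16, the transcriptional repressor downstream of Notch, had 30 loops and 225 tags. Thus the 4 leading hubs belonged to loci of different kinds, a pair of gene-dense stretches, a Hox cluster and an isolated developmental regulator.

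With ties in loops ordered by tags, 6 of the next 11 hubs lay on the same stretch of chromosome 10 as Sf3a2. They included the anchors of the kinase gene Mknk2 (27 loops, 97 tags), of Klf16 (27 loops, 87 tags), of Zbtb7a (27 loops, 70 tags), of Adat3/Scamp4 (26 loops, 93 tags) and of Ptbp1 (24 loops, 75 tags), a regulator of splicing, while Aes, a Groucho-related corepressor now named Tle5, had 25 loops and 57 tags at the same stretch. Those outside it were the anchor of Rxrb and Slc39a7 (25 loops, 95 tags), of Gpsm3 and Notch4 (25 loops, 59 tags) and of the RNA helicase gene Ddx39b (24 loops, 94 tags) in the major histocompatibility region of chromosome 17. Rpl19, a protein of the large ribosomal subunit, had 25 loops with 52 tags on chromosome 11, and Ap2a1, a clathrin adaptor subunit, had 24 loops with 92 tags on chromosome 7.

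Ranked by tags, the order was another. The anchor of Hoxc10 (and of a Hoxc5 transcript that begins there) had 312 tags in 14 loops and that of Hoxc9 had 288 tags in 16 loops. They were followed by Hoxc11 with 264, Hes1 with 225, Hoxc12 with 164, Prmt1 with 159, Akt1s1/Tbc1d17 with 154, Bahcc1 with 122, Mir196a-2 with 104 tags. Ptch1, the Hedgehog receptor, and the shared anchor of Bcl2l12 and Irf3 had 99 tags each. Hoxc genes and the microRNA gene among them thus supplied 5 of the 9 hubs with over 100 tags. In loops per hub these 5 ran from 10 to 30, and in tags per loop from 7.81 to 22.3, beside a median of 2.15 over all hubs. A loop between 2 hubs adds its tags to both, and deep loops joined these 5 hubs to each other. Their sums therefore count many tags repeatedly. The HoxC neighborhood of 11 hubs had 822 tags when each loop was counted once, 528 of them in loops between its hubs.

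**Figure D2:**
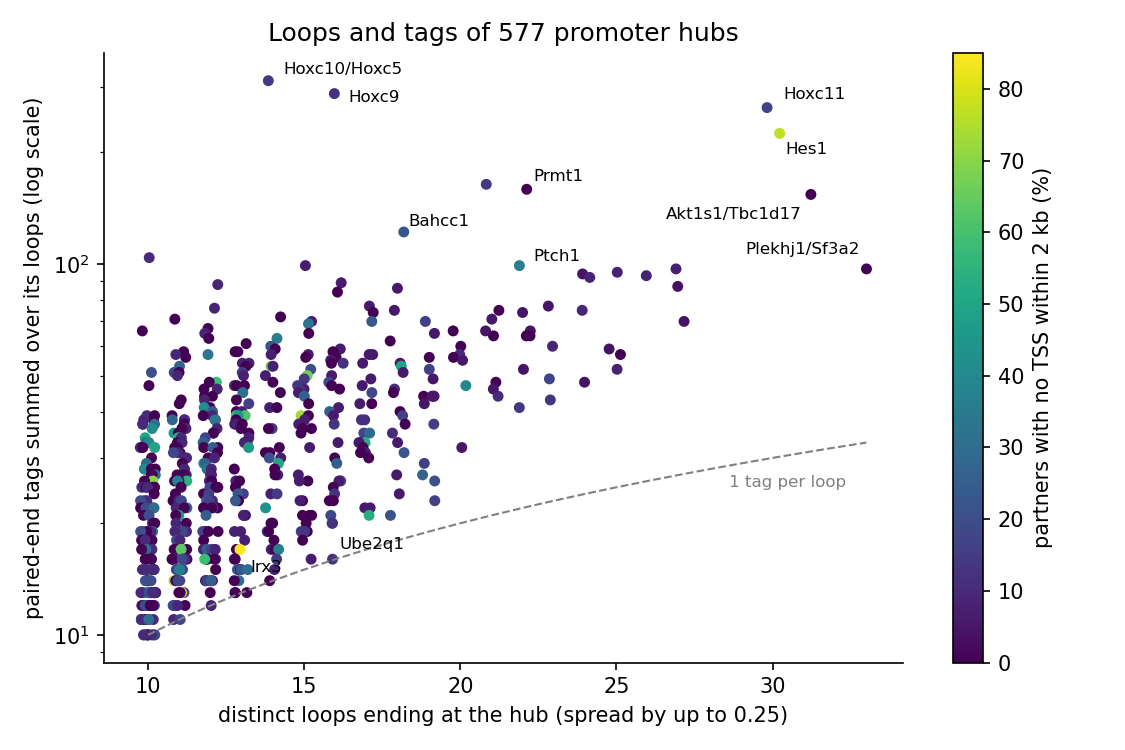
Tags summed over the loops of each hub (y axis, log scale) against its distinct loops (x axis, points spread sideways by up to 0.25), 1 point per hub, colored by the percentage of its partners with no TSS within 2 kb. The dashed line marks 1 tag per loop; Hoxc10/Hoxc5 (312 tags) and Hoxc9 (288 tags) lie highest above it, and hubs such as Ube2q1 (16 loops, 16 tags) lie on it.

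Most hubs were built from loops of little depth. A single tag made up 4164 of the 6328 hub loops (65.8%, 64.6 to 67.0), and 81.9% of the 16870 other loops at promoters. At least 4 tags were found in 12.6% of hub loops and 4.70% of the other promoter loops, and an FDR under 0.01 in 24.5% and 12.1%. In 17 hubs every loop rested on 1 tag, among them 1 of the anchors of Ube2q1 with 16 loops, Lrp1 with 13 and Cux1 with 12. Thus loops at hubs carried more tags than other promoter loops, though the median was 1 in both groups. The groups also differed in run and span. The deposited list holds 2 runs, described below, of 28657 tags in 13683 loops and 12917 tags in 10561 loops. The first run held 75.3% of hub loops and 51.7% of the other promoter loops. Loops under 20 kb were 3.32% of hub loops and 1.885% of the others. The part of run and span in the difference in tags was not tested.

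Counted over loops of 2 or more tags alone, 46 hubs retained 10 or more loops, and 18 did so over loops with an FDR under 0.01. By the stricter FDR, Hes1 had 19 loops, Plekhj1/Sf3a2 had 16, Hoxc11 had 15 and Akt1s1/Tbc1d17 had 14. Hoxc9 retained 13, Ptch1, Mknk2 and Hoxc10/Hoxc5 retained 12 each, and Klf16, Pop7 and the anchor shared by Epo and Gnb2 retained 11 each. Fscn1, which encodes the actin bundling protein fascin, had 10 of its 15 loops under that FDR.

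Hubs looped mainly to other promoters. Of the 3618 distinct partner anchors of hubs, 3033 (83.8%, 82.6 to 84.99) lay within 2 kb of a TSS, beside 79.5% (78.8 to 80.1) of the 14799 partners of the other promoter anchors. Counted by loop ends, 88.7% of hub loops and 86.6% of loops at other promoter anchors had such a partner. In 215 hubs (37.3%) every partner was near a TSS. The median hub had 7.69% of its partners elsewhere and the median other promoter anchor 0%, with an upper quartile of 16.7% in both groups. Other promoter anchors had a median of 2 loops, so their shares are coarse. Of the 3618 partners of hubs, 506 were hubs and so near a TSS by the rule. Of all 16864 anchors, 12979 were promoter anchors.

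Loops also joined hubs to each other, as 1427 of the 6328 hub loops (22.6%, 21.5 to 23.6) with 4806 of their 15110 tags (31.8%) did. A loop to another hub was found at 506 hubs (87.7%). Of 4548 pairs of hubs that lay between 5 kb and 2000 kb apart, 31.4% were joined, compared with 9.38% of 42947 pairs of a hub and another promoter anchor and 4.59% of 269976 pairs of other promoter anchors. Among hub pairs the joined share was 43.9% within 100 kb, 41.0% from 100 to 500 kb, 30.8% from 500 to 1000 kb and 19.02% beyond. A hub has many loops by the rule, so these shares describe how dense the joins were and test nothing. Loops between hubs had 1 tag in 51.4% of cases, and loops from a hub to any other anchor in 70.0%.

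All of the 6 loops between hubs with the most tags were short. Hoxc10/Hoxc5 was joined to Hoxc11 at 11.2 kb and to Hoxc9 at 12.7 kb by 74 tags each. Hoxc12 was joined to Hoxc11 by 51 tags at 16.9 kb and to Hoxc10/Hoxc5 by 46 tags at 28.1 kb. A further 44 tags joined Mir196a-2 to Hoxc9, whose anchor midpoints are 5.54 kb apart. The anchors themselves lie close, as that of Mir196a-2 ends at position 102974254 and that of Hoxc9 begins at 102975193. Another 44 tags joined Prmt1, the main protein arginine methyltransferase, to the shared anchor of Bcl2l12 and Irf3 at 10.5 kb. Short loops carried much of the depth at hubs in general. Loops of under 20 kb were 3.32% of hub loops but held 19.7% of their tags. Among other loops at promoters they were 1.885% and held 11.7% of tags, so short loops were deep there too. Hub loops of 500 to 1000 kb held 14.6% of tags and were 28.4% of loops, and longer ones held 10.1% and were 22.2%. The median hub loop spanned 504 kb (quartiles 258 and 926), close to the 508 kb of other loops at promoters.

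The leading hubs differed in how their partners lay. All 33 partners of Plekhj1/Sf3a2 were near a TSS, 20 of them hubs, with 16 on the lower and 17 on the higher side of the anchor. Its deepest loop, of 14 tags, reached Lsm7/Sppl2b at 56.3 kb, and another of 12 tags reached Oaz1, the ornithine decarboxylase antizyme, at 28.2 kb. The tags of this hub were thus spread, the deepest loop having 14.4% of them.

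Akt1s1/Tbc1d17 likewise had 31 of 31 partners near a TSS, of which 21 were hubs, with loops of 24 tags to Ptov1 and 20 tags to Atf5/Il4i1/Nup62 among them. Prmt1, 137 kb from it and joined to it by 9 tags, had 22 loops and no partner away from a TSS. In contrast, 23 of the 30 partners of Hes1 had no TSS within 2 kb, the nearest partner was 58.6 kb away, and 24 of its loops ran to the lower side. The deepest Hes1 loops, of 38 and 28 tags, reached a noncoding transcript start (4632428C04Rik) at 58.6 kb and an anchor without a TSS at 174 kb. Hoxc11 had 25 partners near a TSS and 5 elsewhere, and 57.2% of its tags were in loops under 20 kb.

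**Figure D3:**
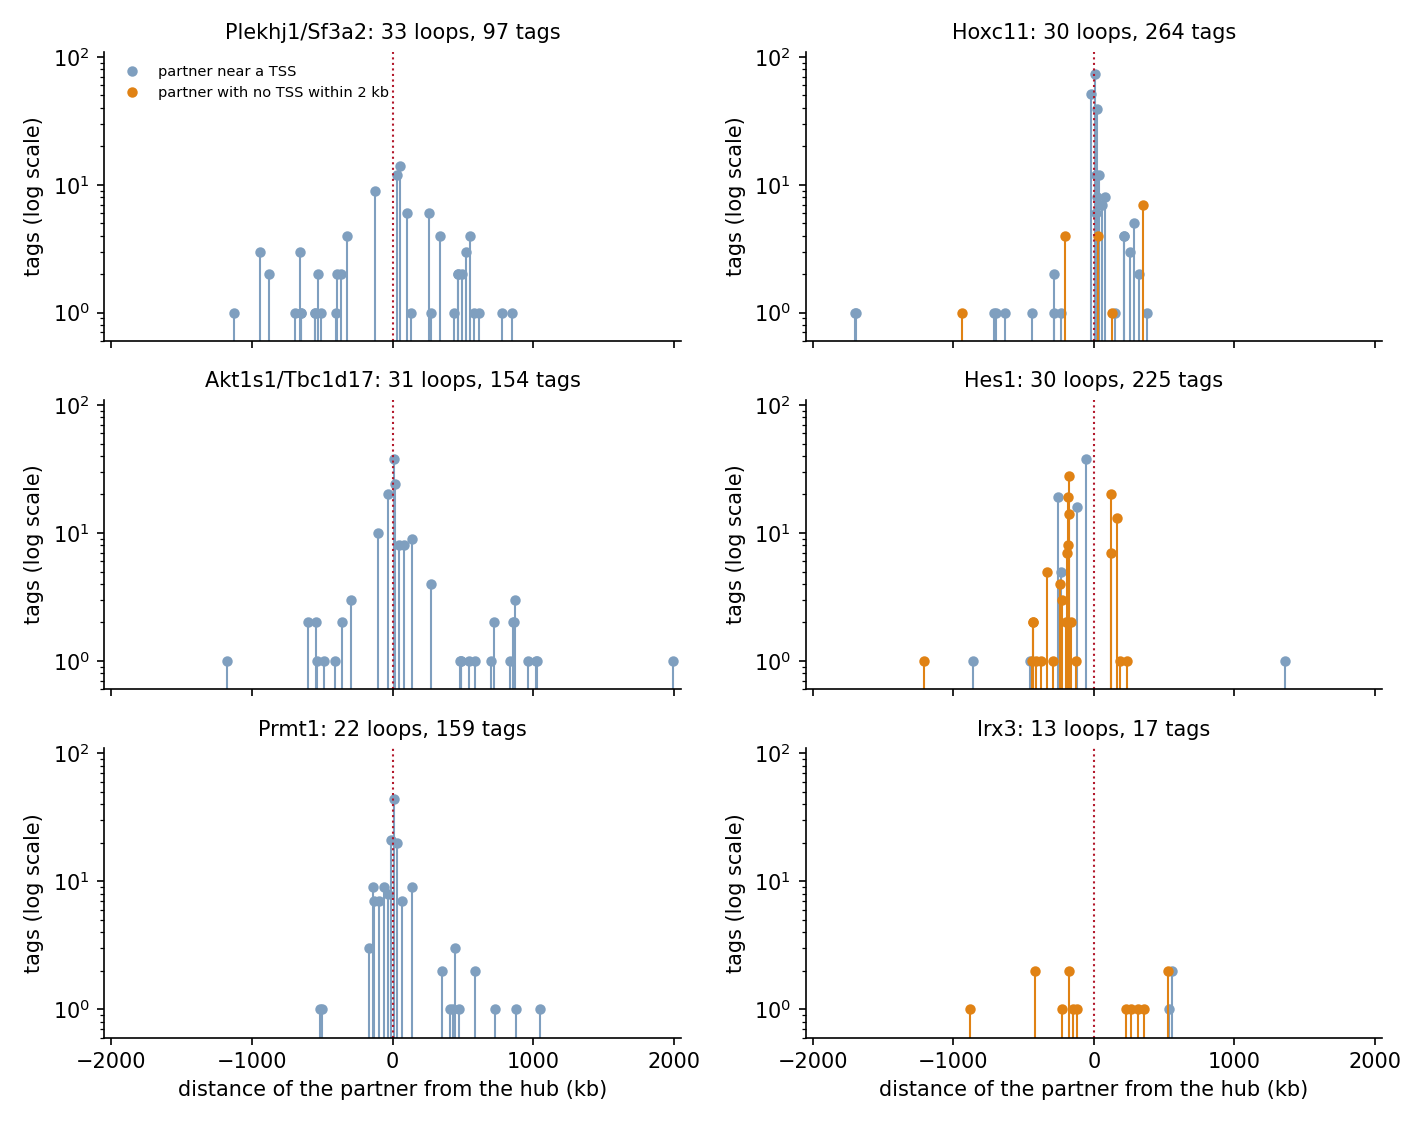
Tags of each loop (y axis, log scale) against the signed distance of its partner from the hub (x axis, kb) for 6 hubs; 1 stem per loop, blue where the partner lies within 2 kb of a TSS and orange where it does not. Partners are all blue at Plekhj1/Sf3a2, Akt1s1/Tbc1d17 and Prmt1, and mostly orange at Hes1 (23 of 30) and Irx3 (11 of 13).

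The 27 hubs with at least 50% of their partners away from a TSS (4.68% of hubs) included many developmental transcription factors. The 6 largest shares were those of Irx3 (84.6%, 11 of 13 partners), an Iroquois homeobox gene, both Zfp608 anchors (81.8% and 73.3%), the noncoding AC129179.2 (80.0%) and AC129179.3 (9 of 12 partners) near Zfp608 and Hes1 (76.7%). Among the others were Hoxb9 with 72.7%, Tcf7l2, the Wnt effector, and Mecom with 70.0% each, Meis1, a Hox cofactor, with 64.3%, and Sox2 with 61.5%. A listed Hox gene or other developmental factor lay at 11 of these 27 hubs and at 8 of the other 550. Surroundings moved with this share, as 19 of the 27 had at most 10 protein-coding genes within 500 kb.

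Over all hubs, the share of loop ends whose partner was away from a TSS was 42.0% at the 51 hubs with at most 10 protein-coding genes within 500 kb, 13.9% at the 223 hubs with 11 to 30 and 4.97% at the 303 with more. In the same order, partners that were hubs made up 8.15%, 27.2% and 47.4% of loop ends. The median anchor width was 4.22 kb, 3.13 kb and 2.96 kb. The part that gene density plays in the partner classes was not tested.

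Hubs were unevenly placed along the genome. Chromosome 11 had 89 hubs, chromosomes 5 and 17 had 69 each, and chromosome 10 had 67, which was 11.5% of its promoter anchors. Chromosome 9 had 2 hubs among 652 promoter anchors (0.307%), chromosome 1 had 7 among 624 and chromosome 4 had 11 among 881. When hubs at most 500 kb apart were grouped, 166 neighborhoods resulted, of which 102 held 1 hub and 29 held at least 5. These 29 held 393 of the 577 hubs.

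The largest neighborhood, at chr10:79667969-82179456, held 48 hubs and 132 protein-coding genes and was the end of 510 loops with 1276 tags. Within it 283 loops joined hub to hub, or 25.1% of its 1128 pairs of hubs. The stretch was 2511 kb long, so some of these pairs lay farther apart than the longest loops, of 2000 kb. At chr5:135776581-140831973, a longer stretch with Mepce/Zcwpw1 as its leading hub, 40 hubs had 399 loops and 887 tags. At chr7:44245109-46035489, which holds Akt1s1, Prmt1 and the ribosomal protein genes Rpl13a and Rpl18, 33 hubs had 328 loops with 960 tags, and 34.9% of hub pairs were joined. At chr11:96063702-98865182, which holds HoxB genes and Rpl19, 30 hubs had 307 loops with 662 tags, and 16.6% of hub pairs were joined. The stretch of chromosome 17 with the major histocompatibility genes had 27 hubs with 885 tags, and that of chromosome 3 around Ash1l/Dap3 had 25 with 569. The HoxC neighborhood, at chr15:102517718-103241649, was smaller, with 11 hubs among 18 protein-coding genes, 822 tags and 67.3% of hub pairs joined. Some neighborhoods of 5 or 6 hubs had similar or larger shares, such as that led by Atf4 with 80.0% of 10 pairs and that led by Zic2 with 73.3% of 15. Neighborhoods differed in length. That led by Mepce/Zcwpw1 was 5055 kb long and that with HoxB genes and Rpl19 was 2801 kb long. HoxC spanned 724 kb and that led by Zic2 spanned 376 kb. Over all hub pairs the joined share fell with distance, so shares of neighborhoods of unlike length are not directly comparable. The part that length plays was not tested.

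Gene density around the anchors was not used by the rule. The median hub had 32 protein-coding genes within 500 kb (quartiles 20 and 46) and the median of the other promoter anchors was 16 (quartiles 9 and 28), over ranges that overlapped from 1 to 73. By quintiles of promoter anchors ordered by this number, hubs were 1.23% of the lowest quintile, 1.77%, 3.24% and 5.24% of the next, and 10.8% of the highest. Hubs likewise had more other anchors in reach, a median of 100 within 2 Mb beside 50. That number is itself made of loop ends and so is not independent of loop counts. Hubs were joined to a median of 12.8% of the anchors in reach and other promoter anchors to 4.76%. This share is made from the loop counts that the rule used, so a higher value at hubs follows in part from their choice.

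A few hubs stood in sparse surroundings. Hivep2 had 10 loops to the 14 other anchors within 2 Mb, or 71.4% of them, and Ptch1 had 22 loops to 47 anchors (46.8%), with 4 protein-coding genes within 500 kb. Meis1, Sox2 and Zfp608 each had 1 protein-coding gene within 500 kb, and these 3 had 14, 13 and 15 loops. These gene counts include the gene at the hub itself. By contrast Plekhj1/Sf3a2 reached 33 of 156 anchors (21.2%) and had 56 protein-coding genes within 500 kb.

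**Figure D4:**
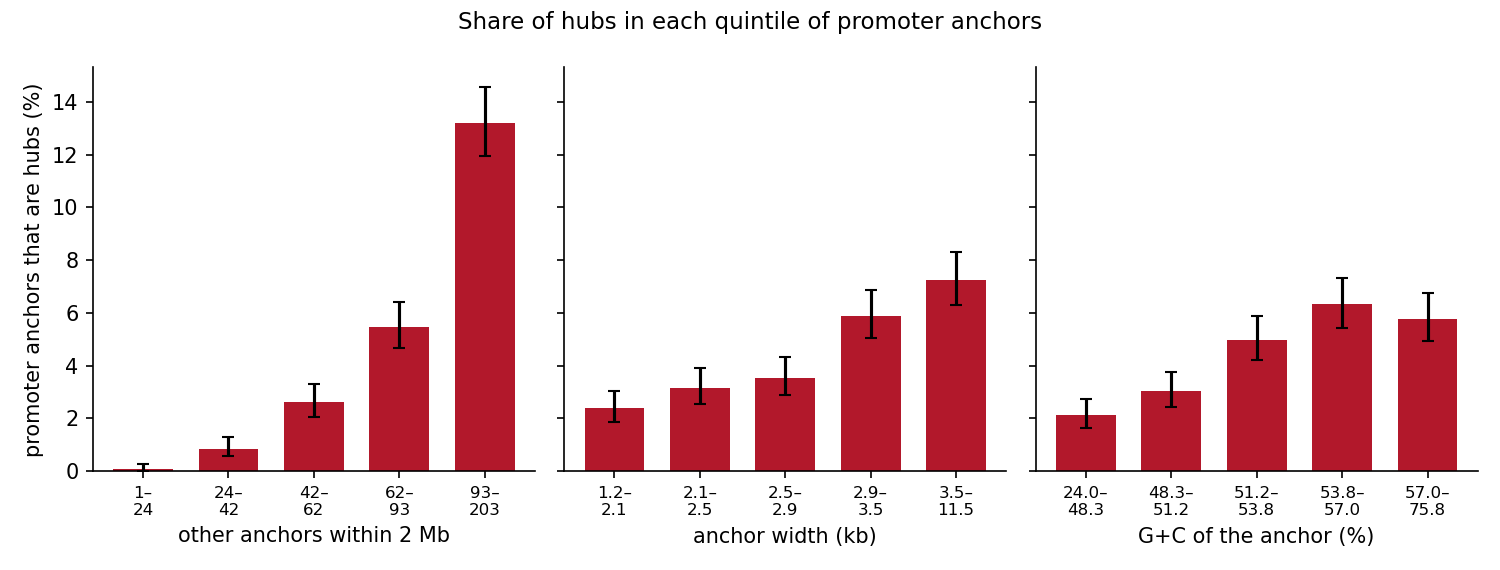
Percentage of promoter anchors that were hubs (y axis) in each quintile of all 12979 promoter anchors (x axis, range of each quintile), ordered by other anchors within 2 Mb, by anchor width in kb and by G+C in percent; error bars are 95% Wilson intervals for counting error. The share rose from 0.077% to 13.2% with anchors in reach and from 2.39% to 7.24% with width. With G+C it was 2.12% in the lowest quintile, 6.32% in the second highest and 5.78% in the highest.

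Hub anchors were wider than the other promoter anchors, with a median of 3.10 kb (quartiles 2.49 and 3.83, range 1.29 to 11.5) beside 2.68 kb (2.18 and 3.32), and these quartiles overlapped. The widest hub was that of Meis1 at 11.5 kb, and Hes1 spanned 9.61 kb. At least 2 protein-coding genes had a TSS at 170 hubs (29.5%, 25.9 to 33.3) and at 15.8% (15.2 to 16.5) of the other promoter anchors. TSSs of protein-coding genes on both strands were found at 22.5% of hubs and 12.97% of the others, as at Plekhj1/Sf3a2 and Akt1s1/Tbc1d17.

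In base composition the medians of the groups lay close together, with overlapping quartiles. G+C was 54.3% at the median hub (quartiles 51.5 and 57.1) and 52.4% at the median of other promoter anchors (49.0 and 56.1). By quintiles of G+C, hubs were still 2.12% of promoter anchors in the lowest, 6.32% in the second highest and 5.78% in the highest. The ratio of observed to expected CpG was 0.573 at the median hub and 0.561 at the median of the others. It reached 0.6 at 43.7% of hubs and 40.9% of the others, with overlapping intervals. By quintiles of this ratio, hubs were 2.77% of the lowest and 4.47% of the highest. Anchors without a TSS had a median ratio of 0.243. MboI, the enzyme that cut the chromatin, recognizes GATC, and hubs had a median of 6 such sites (2.01 per kb) against 5 (1.75 per kb). All 577 hubs held at least 1 site, as did all but 10 of the other promoter anchors. Hubs were 1.12% of the quintile of promoter anchors with the fewest sites and 7.94% of the quintile with the most, and whether site number sets loop number was not tested.

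Within the quintile of promoter anchors with the most anchors in reach, which held 343 of the hubs, the median width was 2.96 kb for hubs and 2.59 kb for the rest. In the same quintile, G+C was 54.6% and 53.8%, the CpG ratio was 0.556 and 0.505 and MboI sites numbered 6 and 5. In the second lowest quintile, with 22 hubs, the corresponding medians were 3.89 and 2.71 kb, 53.5% and 51.5%, 0.670 and 0.595, and 7.5 and 5 sites.

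The deposited list consisted of 2 consecutive runs, each sorted by position, with 13683 loops and 28657 tags in the first and 10561 loops and 12917 tags in the second, and no source used here says what each run holds. Of the hub loops, 4763 stood in the first run, 1627 in the second and 62 in both. The first run supplied 75.3% of hub loops and 51.7% of other promoter loops. Counted by exact anchor ends, all loops of 248 hubs were from the first run, those of 52 hubs were from the second, and 277 hubs drew on both. In the same order these were 43.0%, 9.01% and 48.0% of hubs, beside 42.1%, 47.4% and 10.5% of other promoter anchors. Other promoter anchors have fewer loops by the rule, so the shares are not directly comparable. The split of hubs rests on the exact ends. After overlapping anchors were merged, 762 of the 808 loci with at least 10 loops (94.3%) had loops of both runs. These loci were chosen on the loops of both runs together, and the share at other loci is not given here. Taken alone, the first run gave 372 hubs and the second gave 62.

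Hubs of the second run alone had other properties. Their median width was 4.39 kb, beside 2.61 kb for those of the first run alone and 3.29 kb for those of both. Partners away from a TSS made up 31.6% of their loop ends, beside 7.05% and 11.7%, and 17 of the 27 hubs with at least 50% such partners belonged to them. The second-run hubs included Irx3, Zic2 (18 loops, 53 tags), Zic5, Sox1, Meis1, Tcf7l2 and several Hoxb anchors, whereas the exact anchors of Akt1s1/Tbc1d17, Prmt1, Hoxc9 and Hoxc10/Hoxc5 had loops of the first run alone. At Hoxc9 and Hoxc10/Hoxc5, anchors with other ends that overlapped these had loops of the second run. Run and partner class therefore moved together, and the part of the run in the result was not tested.

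**Figure D5:**
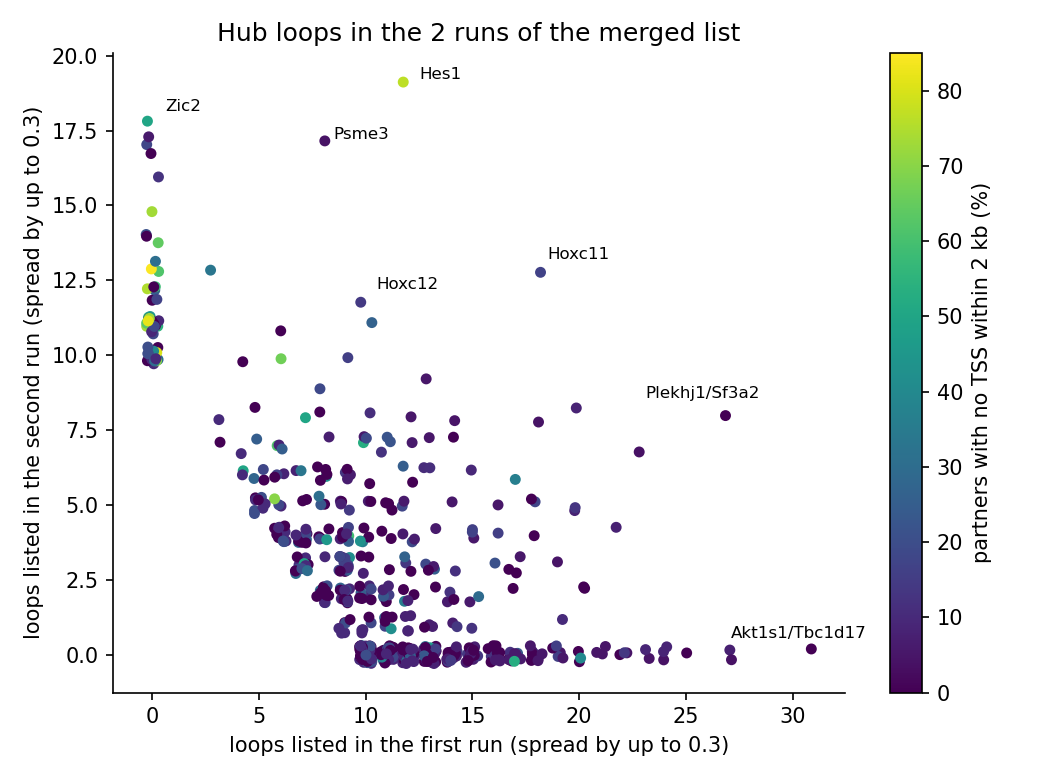
Loops of each hub listed in the second run (y axis) against those listed in the first (x axis), points spread by up to 0.3 in each direction and colored by the percentage of partners with no TSS within 2 kb. The row at 0 holds 248 hubs of the first run alone, the column at 0 holds 52 hubs of the second run alone, and Hes1 (12 and 19 loops) and Hoxc11 (18 and 13 loops) stand apart with many loops in each.

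Anchors of the 2 runs often covered the same promoter with different ends. At Agpat1/Rnf5, 2 hubs shared their lower end, and 1 had 22 loops, all in the first run, while the other had 17, all in the second. Promoter anchors chosen on at least 10 loops in the first run had a median of 3 loops of the second run at overlapping anchors (quartiles 2 and 5, 372 anchors), beside 2 for those with 5 to 9 loops and 1 for those with 1 to 4. In the other direction, the 62 chosen on the second run had a median of 7.5 loops of the first run (quartiles 3 and 11), beside 4 and 1. These orders hold for medians over overlapping anchors. At the same exact anchor the medians were 0 in every class, and of the anchors chosen on the second run 16.1% had a loop of the first, beside 19.6% and 21.1% of those with fewer loops.

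When overlapping anchors were merged before counting, 808 of 10007 promoter loci had 10 loops or more, and 23 of them had at least 10 in each run. They included Agpat1/Rnf5 (22 and 17 loops), Atp6v1g2/Nfkbil1 (17 and 17), the long noncoding RNA gene Neat1 (16 and 17), Hes1 (12 and 19), Hoxc11 (17 and 12), Hoxc9 (18 and 12), Ubtf (16 and 12), a factor for ribosomal RNA transcription, Nfe2l1 (13 and 13) and Ing1 (17 and 10).

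Gene lists were read for a TSS at a hub, among the genes with a TSS at any anchor, with 7.05% of all such protein-coding genes as the background. Hox genes were at hubs in 12 of 34 cases (35.3%, 21.5 to 52.1). All 12 were in HoxB or HoxC, from Hoxb2, Hoxb4, Hoxb5, Hoxb6, Hoxb7 and Hoxb9 to Hoxc5, Hoxc6, Hoxc9, Hoxc10, Hoxc11 and Hoxc12, and neighbors share loops and in some cases an anchor. Hoxb4 had 14 loops with 63 tags and Hoxb2 had 11 loops with 34. Other developmental transcription factors were at hubs in 8 of 69 cases (11.6%, 5.99 to 21.3), an interval that held the background. Among them were Sox1, Sox2, Dlx2, Irx3, Zic2, Zic5 and Meis1. Dlx2, a homeobox gene of forebrain and limb development, had 11 loops with 38 tags.

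Of chromatin regulators, 3 of 28 BAF subunit genes (10.7%, 3.71 to 27.2) and 3 of 33 Polycomb genes (9.09%, 3.14 to 23.6) were at hubs, with intervals that held the background. They were Arid1b with 14 loops, Bicral with 21 and Bcl7a with 12, and Pcgf2 with 23, Ring1 with 15 and Cbx6 with 12. In signaling pathways, hubs were found at 3 of 19 Notch genes (15.8%, 5.52 to 37.6), namely Hes1, Notch4 and the glycosyltransferase gene Lfng. They were found at 4 of 31 Wnt genes (12.9%, 5.13 to 28.85), the receptors Fzd1 and Fzd2, Tcf7l2 and Tle5. Of 32 FGF and ephrin genes 3 were at hubs (9.4%, 3.24 to 24.2), Efna1 with 15 loops, Efna3 with 14 and Ephb4 with 12. Ptch1 was the single hub gene of 30 in the Hedgehog, BMP and TGF-beta list (3.33%, 0.591 to 16.7). Each of these signaling intervals held the background of 7.05%.

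Of genes used by most cells, 13 of 74 ribosomal protein genes (17.6%, 10.6 to 27.8) and 7 of 32 actin, tubulin and metabolic housekeeping genes (21.9%, 11.02 to 38.8) were at hubs. Rpl19 had 25 loops, Rpl18 had 22 and Rpl10a had 18, whereas Rps2 and Rps15 had 10 each. Actb had 11 loops and Hsp90ab1 had 13. Immediate early genes were at hubs in 4 of 26 cases (15.4%, 6.15 to 33.5), Fos with 15 loops, Ier5l with 13, Ier5 with 11 and Fosl2 with 10. Of 31 cell cycle and Myc genes 3 were at hubs (9.68%, 3.35 to 24.9), Mcm7, Rbl1 and Pcna. None of the 8 collagen genes at an anchor was at a hub (0%, 0 to 32.4). The immediate early, cell cycle and collagen intervals held the background of 7.05%. The median of the most loops per gene was 3 over all protein-coding genes at an anchor, 6 over Hox genes, 3.5 over ribosomal protein genes and 3 over BAF and Polycomb genes.

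Genes with sarcomagenesis-activated (SAT) or maintained (MAT) transcription were defined by the study's authors in related work, from single-cell RNA data of tumor cells and their cells of origin. A hub was at 10 of the 104 SAT genes with an anchor (9.62%, 5.31 to 16.8) and at 14 of the 283 MAT genes (4.95%, 2.97 to 8.13), intervals that overlapped each other and the background. The SAT genes at hubs were Sox1, Sox2, Hoxb4, Hoxb9, Hoxc5, Hoxc6, Efna3 (14 loops, 72 tags), Ppfia3 (19 loops, 56 tags), Ccdc106 and Elfn1. Those of the MAT list with the most loops were Zbtb7a with 27, Brd2, a bromodomain reader of acetylated histones, with 23 and Agpat1 with 22.

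Of the listed cell type markers, few for macrophages, skeletal muscle and fibroblasts had a TSS at any anchor. Every list gave at most 6 such genes, so little can be read from their share at hubs. Of 12 macrophage markers 1 had a TSS at any anchor, of 12 endothelial markers 5 and of 12 skeletal muscle markers 2, and 0 of these 8 were at a hub. Of 2 fibroblast markers with an anchor 1 was at a hub, and of 6 epithelial markers 1. The paper describes epithelial populations among the neoplastic cells of its tumors, so epithelial markers do not mark other cells here. The fibroblast marker Pdgfra had a hub of 12 loops with 41 tags, and the epithelial marker Muc1 shared an anchor of 11 loops and 13 tags with Mtx1 and Thbs3. How far cells other than tumor cells contributed tags to any hub was not tested.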

How the data were processed

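H3K27ac HiChIP was done on 2 mouse tumors with MboI digestion. Read pairs were mapped to mm10 with HiC-Pro, loops were called with hichipper and Mango statistics, and the loops of both tumors were merged by the authors. The deposited list gives, for each loop, a count of paired-end tags and the caller's FDR, a q-value, which was below 0.05 throughout. The sources used here name 2 limits, an FDR under 0.05 and an FDR under 0.01, and the hubs were counted over all loops of the list. How counts of both tumors were combined is not given in the sources used here, so no error between tumors could be given, and no test was run. All other data of the series were not used here. Samples were grouped by their labels.

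Loops were distinct pairs of anchors, with tags summed over repeats, and a span is the distance between anchor midpoints. A TSS is the start of any GENCODE vM21 transcript. Counts of protein-coding genes within 500 kb of an anchor include those at the anchor itself. An anchor is named for the protein-coding genes, or failing these other genes, whose TSS lies within 2 kb. G+C, CpG and MboI sites were read from the GRCm38 sequence of each anchor. Promoter windows are from RefSeq (GRCm38.p6). The expected CpG number was taken from an anchor's C and G content. Python 3.11.15, pandas 2.3.3, numpy 2.4.6 and pysam 0.24.0 were used. Wilson 95% intervals cover counting error only, since tags and loops are not independent molecules or replicates, and the total of 41574 tags limits what can be seen. The steps were tested on simulated loops with known hubs. The hubs and the gene lists were chosen with earlier results of these data known.

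The genes named were the 15 hubs with the most loops, the 10 with the most tags, the 6 with the largest share of partners away from a TSS, the 3 anchors with the most tags on either side of the threshold, the 6 deepest loops between hubs, and the list genes at hubs. A few items that these rules name are not reported here. Other names were chosen after their values were seen. Alternatives were other loop minimums, TSS windows and sets, loop filters, merged anchors, each run of the list alone, and leaving out the Hox clusters.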

Additional observations from a re-analysis of the deposited data

How the results depend on the processing

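Of 83 values recomputed under alternatives, 33 stayed within 1.5 times the reported count or within the interval of the reported value, and 50 did not. The values follow in the order of number of hubs, share of all loops at a hub, share of partner anchors near a TSS, share of hub loops that join hubs, share of hub loops with 1 tag, median span in kb and median width in kb, leaving out those that stayed. With a minimum of 8 loops there were 1009 hubs with 37.2% of loops, 27.1% joining hubs and 67.8% with 1 tag. With a minimum of 15 there were 168 hubs with 11.2% of loops, 85.9% of partners near a TSS, 14.2% joining hubs, 61.2% with 1 tag and a width of 3.20 kb. A TSS window of 1 kb gave 82.5% of partners near a TSS and one of 5 kb gave 87.2%. With TSSs of protein-coding genes alone, hubs had 25.5% of loops and 80.4% of partners near a TSS. With loops of an FDR under 0.01 alone there were 18 hubs with 5.51% of loops, 6.40% joining hubs, 0% with 1 tag, a span of 315 kb and a width of 3.74 kb. With loops of at least 2 tags there were 46 hubs with 9.26% of loops, 88.7% of partners near a TSS, 10.3% joining hubs, a span of 249.5 kb and a width of 3.35 kb, and a share with 1 tag does not apply. Without loops under 20 kb, hubs had 24.8% of loops, 21.4% joining hubs, 67.8% with 1 tag and a span of 523 kb. With overlapping anchors merged, hubs had 37.0% of loops, 80.8% of partners near a TSS, 27.8% joining hubs, 67.6% with 1 tag and a width of 3.40 kb. The first run of the list alone gave 372 hubs with 28.4% of loops, 88.6% of partners near a TSS, 27.9% joining hubs, 60.5% with 1 tag, a span of 567.5 kb and a width of 2.94 kb. The second run alone gave 62 hubs with 6.57% of loops, 70.0% of partners near a TSS, 6.20% joining hubs, 71.9% with 1 tag, a span of 266 kb and a width of 4.16 kb. Without the 4 Hox clusters, hubs had 25.7% of loops. Loop filters and single runs left fewer loops to count, and the cause of these changes was not tested. No paired analysis was possible because the list holds no value per tumor and no groups were compared by a test.

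A single tag makes up 65.8% of hub loops, and an anchor at 10 loops leaves the hubs if 1 such loop is left out. The list gives no spread between tumors.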

Other observations

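The following groups were named after their values were seen. No protein-coding TSS lay at 20 hubs. Both anchors of Neat1, the RNA scaffold of paraspeckles, were among them, with 17 loops (22 tags) and 16 loops (47 tags). Gm26834, a partner of Hes1 at 253.5 kb, had 15 loops with 50 tags and 66.7% of partners away from a TSS. Both anchors of Sox1ot, which overlaps Sox1, were also hubs, with 11 loops (17 tags) and 10 loops (33 tags).

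Loops ran to 1 side alone at 8 hubs (1.39%, 0.704 to 2.71). Clec11a had 14 loops, Tm9sf2 and Gys1/Ruvbl2 had 12 each, Smug1, Igsf8 and Dnajb1/Tecr had 11 each, and Hivep2 and Kcmf1 had 10 each.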
